A study of Mus musculus with 32 samples.

Results

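The Igκ repertoire of pre-B-cell clone 4 was compared between 36 h and 48 h after withdrawal of IL-7, the last step of a time course that also holds libraries from 12 h and 24 h. These are 2 of the 32 samples of the study and 2 of its 10 VJ-seq libraries, and they were taken by their labels, with 1 library at each time. The study asked how the 2 alleles of the Igκ locus are made available for rearrangement in single pre-B-cell clones. Clone 4 was grown from a single cell of the bone marrow of F1 B6/Cast mice (C57BL6 crossed with Castaneous), so that its B6 and Cast alleles can be told apart by sequence differences.

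The cells were grown on irradiated ST2 feeder cells, a bone marrow stromal line, in medium with IL-7, the cytokine that keeps pre-B cells dividing, and IL-7 was removed to let light chain rearrangement begin. No other treatment separates the libraries at 36 h and 48 h. The values below therefore describe a single clone, and the labels do not say whether its times were taken from 1 culture. A further library of clone 4 at 48 h was sequenced more deeply with a panel of other clones, and its values are given beside those of the time course as the panel library. The files hold counts of Vκ segments only, so that the pre-B identity of the cells could not be checked against marker genes.

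A κ light chain gene is made when the RAG recombinase joins 1 of the many Vκ segments to 1 of the Jκ segments that lie next to the constant region Cκ. RAG cuts at the recombination signal sequence (RSS) that follows each Vκ segment, made of a heptamer, a spacer and a nonamer. A Vκ segment that points the same way as Jκ is joined by deletion of the DNA between them, and a segment that points the other way by inversion, which keeps that DNA on the chromosome. A later joining of a more distant Vκ to a more downstream Jκ can replace the earlier one, so that the repertoire of a cell population can go on changing after each cell has rearranged once.

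In VJ-seq, cDNA was primed in the Cκ exon and amplified by ligation-mediated PCR, so that each read carries the Vκ segment to which Jκ and Cκ had been joined. On mm10, the build of the files, the reverse transcription primer matched the minus strand of the Igkc exon at chr6:70726617-70726636 and the PCR primer at chr6:70726457-70726478, each with 1 match in the locus. The primers are shown because they decide that only transcripts running through Cκ are read.
Reverse transcription primer: atgctgtaggtgctgtcttt
PCR primer: actggatggtgggaagatggat

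The RSS of the segments on which the comparison turns are shown 5′ to 3′ on the strand of each segment, with the heptamer and the nonamer in capitals. They are B6 reference sequence from RefSeq (GRCm38.p6), in which all 112 segments of the deposited table were found, and the Cast sequences were not read. The segment with the largest fall is shown beside the Igkv5 segments that had the largest gains on the B6 allele, and a pair of Igkv4 segments that were lower at 48 h.
Igkv19-93: CACAGTGatacaaatcataACAAAAACC
Igkv5-43: CACAGTGatgcagaccataGCAAAAATC
Igkv5-45: CACAGTGatgcagaccataGCAAAAATC
Igkv5-39: CACAATGatgcagaccataGCAAAAACC
Igkv4-86: CACAGTGatacagactggaACAAAAACC
Igkv4-70: CACAGTGatacagactggaACAAAAACC

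The RSS of segments of the Igkv6, Igkv8 and Igkv17 families that differed between the libraries follow.
Igkv6-20: CACAGTGcttcagcctcccACATAAACA
Igkv6-25: CACAGTGcttcagccttctACATAAACA
Igkv8-19: CACAGTGcttcagcctcctACACAAACC
Igkv17-121: CACAGTGctatgtcctcttACAGAAACC

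The heptamer CACAGTG and the nonamer ACAAAAACC were searched on the strand of each segment, within 5 bases of its annotated end. The full heptamer was found at 93 of the 112 segments (83.0%), and both at 35 (31.2%). Igkv19-93, Igkv4-86 and Igkv4-70 had both, and the Igkv5, Igkv6, Igkv8 and Igkv17 segments printed here differed from the nonamer. Igkv5-43 and Igkv5-45 shared all letters of the RSS.

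The library at 36 h held 7092 reads on the 112 segments of both alleles, 5402 on B6 and 1690 on Cast, and the library at 48 h held 10958 reads, 8408 on B6 and 2550 on Cast. The panel library held 64672. A contribution of 3 reads, taken as the floor of detection, was 0.0423% of the library at 36 h and 0.0274% at 48 h. Since PCR copies cannot be told from separate molecules in these reads, all intervals below are 95% intervals for counting error only. With 1 library at each time there is no replicate check of any difference, and no p-value across segments is given.

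The measured difference between the libraries at 36 h and 48 h was smaller than over the steps before. The difference was measured on each allele by the Bray-Curtis dissimilarity of the percents of that allele, which is 0 for equal and 1 for separate repertoires. On B6 it was 0.350 from 12 h to 24 h, 0.342 from 24 h to 36 h and 0.137 from 36 h to 48 h, and on Cast 0.568, 0.355 and 0.149. Shallow libraries raise this measure, so that the mean expected from sampling of reads alone was computed for each step. From 36 h to 48 h this mean was 0.0531 on B6 and 0.0870 on Cast, and the measured values were 2.59 and 1.71 times as large. From 24 h to 36 h the sampling means were 0.104 and 0.184, and the measured values were 3.29 and 1.93 times as large, but this multiple grows with depth and cannot be compared between steps. The index 1 minus Morisita, which allows for depth, was 0.224 on B6 and 0.125 on Cast from 24 h to 36 h, and 0.0784 and 0.0236 from 36 h to 48 h. A difference above the sampling mean was thus left on both alleles. Without Igkv19-93 the index was 0.0166 on B6 and 0.0246 on Cast for the last step.

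**Figure D1:**
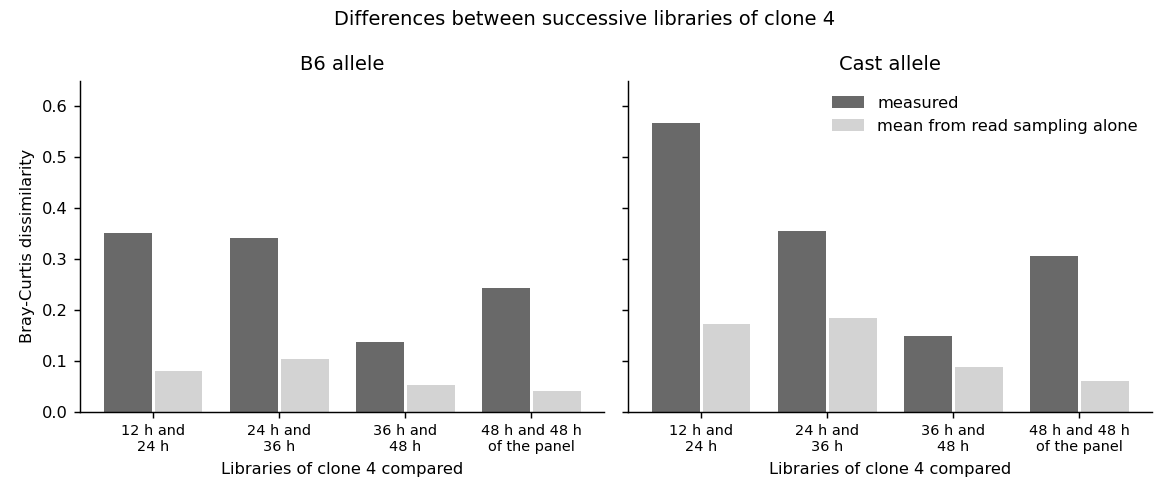
Bray-Curtis dissimilarity (0 to 1) between successive libraries of clone 4 on the B6 and Cast alleles, in dark bars, beside the mean given by sampling of reads alone, in light bars. The step from 36 h to 48 h is the smallest on both alleles, at 0.137 and 0.149, and lies below the difference between the libraries of clone 4 at 48 h, at 0.242 and 0.305.

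The step from 36 h to 48 h was also smaller than the distance between the libraries of clone 4 at 48 h, which was 0.242 on B6 and 0.305 on Cast, with 0.0397 and 0.0597 expected from sampling. The labels do not say whether these libraries came from separate cultures. What separates them exceeded what separated the libraries at 36 h and 48 h, and the differences below are therefore given with the value of the panel library. Comparisons of 36 h with either library at 48 h share the library at 36 h, so that a direction common to both is not independent.

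On the B6 allele Igkv19-93 made up most of the losses. The percents of B6 reads that were lost summed to 13.7 points over 40 segments, and Igkv19-93 alone, which fell by 7.64 points, made up 55.6% of this sum. The gains were spread over 51 segments, with the largest shares from Igkv5-43, Igkv5-45 and Igkv5-39, which together held 28.9% of the summed gain. Without Igkv19-93 the dissimilarity on B6 was 0.110, against 0.0592 expected from sampling, so that the other segments also differed by more than the sampling mean. On Cast the losses summed to 14.9 points over 30 segments, led by Igkv1-135 with 20.1% and Igkv6-20 with 15.6% of the sum, and the gains were spread over 42 segments.

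The evenness of the B6 repertoire still grew. The effective number of segments, the inverse of the chance that a pair of reads hit the same segment, was 6.14 on B6 at 24 h, 19.4 at 36 h and 29.6 at 48 h. Without Igkv19-93 it was 28.2 at 24 h, 36.2 at 36 h, 35.2 at 48 h and 45.2 in the panel library, so that from 36 h to 48 h of the time course no growth was seen among the other segments. The number of segments that made up 50% of B6 reads was 10 at 36 h and 12 at 48 h, and the share of the 10 most used segments was 51.3% and 46.3%. On Cast the effective number was 23.1 at 36 h and 25.5 at 48 h, and the 10 most used segments held 54.3% and 48.8%. For the panel library the effective number was 44.4 on B6, higher again, and 21.3 on Cast, below both times, and the 10 most used segments held 36.1% and 54.7%.

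Few segments first appeared at 48 h. At an equal depth of 5402 reads, 86 B6 segments were read at 36 h and 87.9 at 48 h, and at 1690 reads 64 Cast segments and 68.3. On B6, 85 segments were read in both libraries, 5 only at 48 h and 1 only at 36 h, and on Cast 64 in both, 8 only at 48 h and none only at 36 h. Those read only at 48 h on an allele held 26 reads on B6 and 18 on Cast, and some of them had been read at 36 h on the other allele. Most of them were at 5 reads or fewer, and those with 5 or more were Igkv6-23 and Igkv3-1 on B6 and Igkv18-36 on Cast.

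Igkv6-23, at chr6:70260409-70260955, had 0 B6 reads at 36 h and 13 at 48 h, and 18 reads in the deeper panel library. With the floor of 3 reads set at 36 h its ratio was 2.80, a value that does not allow for counting error. Igkv3-1, the Vκ segment nearest to Jκ at chr6:70703578-70704177, had 0 and 9 B6 reads, and 3 at 24 h. Igkv18-36, at chr6:69992465-69992977, had 0 and 5 Cast reads, and 82 in the panel library. Igkv18-36 was thus close to the floor, and Igkv3-1 had been read at an earlier time.

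Segments were compared by their percent of all reads of the library, where they had at least 20 reads on an allele over both libraries. A segment was called higher or lower at 48 h where this percent differed by 1.5-fold or more. On B6, 69 segments could be compared, and 9 were called higher (13.0%) and 9 lower (13.0%). With Igkv19-93 left out of the total, 8 of 68 B6 segments were called higher and 11 of 68 lower. On Cast, 43 could be compared, and 10 were called higher (23.3%) and 6 lower (14.0%). The interval of the ratio left out 1 for 7 of the 9 higher and 3 of the 9 lower segments on B6, and for 4 of the 10 higher and 5 of the 6 lower segments on Cast. These intervals were not adjusted for the number of segments compared.

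Most segments thus stayed within 1.5-fold, 51 on B6 and 27 on Cast, and 29 on B6 and 17 on Cast stayed within 1.25-fold. The median ratio of 48 h over 36 h was 1.08 on B6 and 1.07 on Cast. By the same rule 66.7% of the segments compared were called from 24 h to 36 h on each allele, in shallower libraries. Between the libraries at 48 h, over the segments compared here, 36 of 69 on B6 (52.2%) and 26 of 43 on Cast (60.5%) were past 1.5-fold. Over all segments with 20 reads or more in these libraries it was 61.3% on B6 and 73.0% on Cast. Both shares exceeded the 26.1% on B6 and the 37.2% on Cast that were called between 36 h and 48 h.

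**Figure D2:**
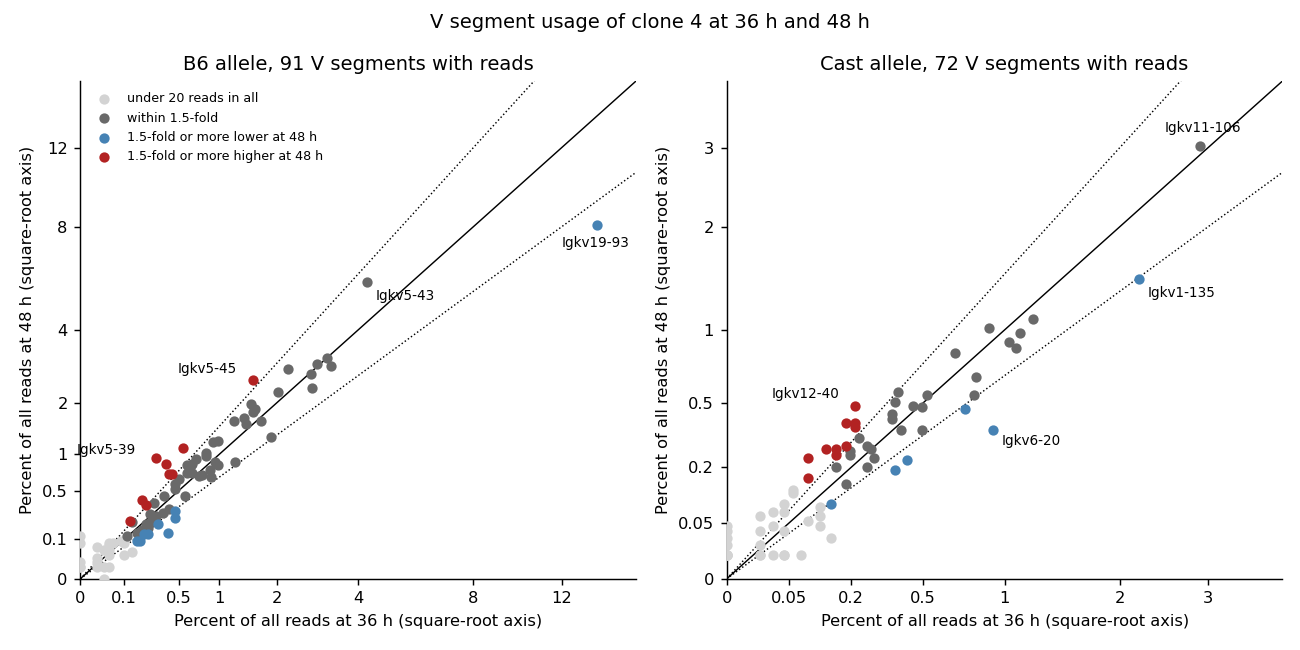
Percent of all reads of the library at 36 h (horizontal) and 48 h (vertical) for each Vκ segment on the B6 and Cast alleles, on square-root axes. The solid line marks equal values and the dotted lines 1.5-fold. Most segments lie between the dotted lines, Igkv19-93 lies below them on B6 and Igkv1-135 and Igkv6-20 on Cast, and Igkv5-39 and Igkv5-45 lie above them on B6.

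Igkv19-93, the single member of its family, is at chr6:68736297-68736780 on the minus strand, so that on an unrearranged locus it joins Jκ by inversion. Its B6 copy had 982 reads at 36 h, 13.8% of the library with an interval from 13.1% to 14.7%, and 886 reads at 48 h, 8.09% with an interval from 7.59% to 8.61%. It was still the most used B6 segment at 48 h. The ratio was 0.58, with an interval from 0.53 to 0.64, and its percent of the library fell by 5.76 points. The panel library held 3.69% for this segment, lower again. On the Cast allele it had 77 reads and 94 reads, 1.09% and 0.858%, with a ratio of 0.79 and an interval from 0.58 to 1.08 that includes 1.

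Of the 5 Igkv5 segments, all in the part of the locus near Jκ and on the minus strand, 3 had the largest gains on B6. Igkv5-39, at chr6:69900424-69900977, had 21 B6 reads at 36 h (0.296%) and 104 at 48 h (0.949%), a ratio of 3.21 with an interval from 1.99 to 5.40. Igkv5-45, at chr6:69775750-69776344, had 110 reads (1.55%) and 280 reads (2.56%), a ratio of 1.65 with an interval from 1.32 to 2.07. Igkv5-43, at chr6:69823355-69823943 and the second most used B6 segment at both times, had 301 reads (4.24%) and 622 reads (5.68%), a ratio of 1.34 that did not reach the fold used here although its interval, from 1.16 to 1.54, left out 1.

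All 3 were thus higher at 48 h beyond counting error, and Igkv5-43 and Igkv5-45 are 98.4% identical in transcript sequence, so that reads may have been split between them. In the panel library Igkv5-39 held 0.448%, between the values of the time course, while Igkv5-45 held 1.35% and Igkv5-43 2.09%, below both. Igkv5-48, which has the same RSS as Igkv5-43 and Igkv5-45, had 205 reads (2.89%) at 36 h and 325 (2.97%) at 48 h, with an interval of the ratio from 0.86 to 1.23. Igkv5-37, named after its values were seen, had 12 reads (0.169%) and 15 (0.137%), a ratio of 0.81 with an interval from 0.35 to 1.89. Equal RSS letters, in Igkv5-48, Igkv5-43 and Igkv5-45, therefore went with ratios of 1.03, 1.34 and 1.65.

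On Cast 4 of these 5 segments had fewer reads than on B6, and Igkv5-37, with 35 and 39 Cast reads, had more. Igkv5-48 had 86 reads at 36 h (1.21%) and 119 at 48 h (1.09%), and the Cast interval of its ratio, from 0.67 to 1.20, included 1. Igkv5-39 had 14 Cast reads and 27, and the interval of its ratio, from 0.63 to 2.58, included 1 as well. Igkv5-45 had 13 and 31 Cast reads and was called higher, with a ratio of 1.54, but its interval, from 0.78 to 3.21, included 1. Igkv5-43 had 48 and 90, a ratio of 1.21 with an interval from 0.85 to 1.76.

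Other B6 segments called higher lay in each of the proximal, middle and distal parts of the locus. Igkv6-25, at chr6:70215400-70215957 on the plus strand, had 27 reads (0.381%) at 36 h and 94 (0.858%) at 48 h, a ratio of 2.25 with an interval from 1.46 to 3.60. Its panel value of 1.18% was above both. Igkv8-19, at chr6:70340876-70341453, had 39 reads (0.550%) and 121 (1.10%), a ratio of 2.01 with an interval from 1.39 to 2.96, and its panel value of 0.264% was below both. It is 97.7% identical to Igkv8-28.

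Igkv17-121, at chr6:68036812-68037318 in the distal part, had 29 reads (0.409%) and 78 (0.712%), a ratio of 1.74 with an interval from 1.12 to 2.77. Igkv4-53, at chr6:69648824-69649363 in the middle, had 31 reads (0.437%) and 77 (0.703%), a ratio of 1.61 with an interval from 1.05 to 2.52. It is 97.6% identical to Igkv4-60. For Igkv4-53 the panel value of 1.13% was above both and for Igkv17-121, at 0.144%, below both. Of the 6 B6 segments called higher with the largest gains, Igkv6-25 and Igkv4-53 were thus above their 36 h value in both libraries at 48 h, as was Igkv5-39, and Igkv5-45, Igkv8-19 and Igkv17-121 in the time course only.

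Besides Igkv19-93, the B6 segments called lower with the largest losses were rare ones of the middle of the locus, where 21 of the 25 B6 segments compared belong to the Igkv4 family. Igkv4-86, at chr6:68910411-68910973, had 28 reads (0.395%) at 36 h and 15 (0.137%) at 48 h, a ratio of 0.35 with an interval from 0.17 to 0.67. Igkv4-70, at chr6:69267888-69268443, had 33 reads (0.465%) and 26 (0.237%), a ratio of 0.51 with an interval from 0.29 to 0.88. Their panel values were 0.292% and 0.725%. Igkv4-70 is 97.5% identical to Igkv4-59, named after its values were seen, which had 33 and 64 B6 reads. Reads may have been split between these relatives.

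Igkv4-58 had 33 reads in each library, Igkv4-55 had 22 and 21, and Igkv13-85 had 17 and 14. Their ratios were 0.65, 0.62 and 0.53, and all 3 intervals included 1. These counts were nearly level, and the ratios followed from the larger total at 48 h. In the panel library Igkv4-70, Igkv4-58 and Igkv4-55 held more than at 36 h and Igkv4-86 and Igkv13-85 less.

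The remaining leading B6 segments differed little in the time course. Igkv12-44 had 223 reads (3.14%) at 36 h and 345 (3.15%) at 48 h, a ratio of 1.00 with an interval from 0.84 to 1.19, and it had no Cast reads at either time. Igkv4-50 had 230 reads (3.24%) and 320 (2.92%), a ratio of 0.90 with an interval from 0.76 to 1.07. Their panel values, 2.01% and 2.31%, were below both times.

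On the Cast allele the most used segment was Igkv11-106, which is annotated as a pseudogene at chr6:68339527-68339995. It had 206 reads at 36 h and 331 at 48 h, or 2.90% and 3.02% of the library and 12.2% and 13.0% of Cast reads, a ratio of 1.04 with an interval from 0.87 to 1.24. The panel library held 2.15%. It had no B6 reads in any of these 3 libraries.

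Igkv1-135, at chr6:67609713-67610508 near the far end of the locus, was second among Cast segments and had the largest Cast loss. It had 156 reads (2.20%) at 36 h and 159 (1.45%) at 48 h, a ratio of 0.66 with an interval from 0.53 to 0.83, and the panel library held 1.78%. Igkv1-133, which is 96.8% identical to it, had 15 Cast reads (0.212%) and 43 (0.392%), a ratio of 1.86 with an interval from 1.01 to 3.60. These relatives differed in opposite directions, and reads of one may have been counted on the other.

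Igkv6-20, at chr6:70335841-70336507, had the lowest ratio among the Cast segments compared. It had 65 Cast reads (0.917%, interval 0.720% to 1.17%) at 36 h and 39 (0.356%, interval 0.260% to 0.486%) at 48 h, a ratio of 0.39 with an interval from 0.25 to 0.59, and the panel library held 0.813%. On B6 it had 159 reads (2.24%) and 310 (2.83%), a ratio of 1.26 with an interval from 1.04 to 1.54. The segment was thus lower on Cast and not on B6. Igkv6-20 is 98.5% identical to Igkv6-29, and a split of reads between these was not tested.

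The other Cast segments called lower were small. Igkv9-120 had 52 reads (0.733%) and 51 (0.465%), a ratio of 0.63 with an interval from 0.42 to 0.95, and the panel held 1.25%. Igkv1-122 had 30 and 25 reads, Igkv6-32 had 26 and 21, and Igkv14-100 had 10 and 10, with ratios of 0.54, 0.52 and 0.65. The interval of Igkv14-100 included 1, and the upper bounds for Igkv1-122 and Igkv6-32 were 0.95 and 0.97.

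The Cast segments called higher started from few reads. Igkv12-40, annotated as a pseudogene at chr6:69879350-69879819, had 15 reads (0.212%) at 36 h and 53 (0.484%) at 48 h, a ratio of 2.29 with an interval from 1.27 to 4.37, and the panel held 0.578%. Igkv12-41, at chr6:69858420-69858884, had 9 and 30 reads, a ratio of 2.16 with an interval from 1.00 to 5.17 that just included 1. These neighbours in the part near Jκ were both higher, and both stood above their 36 h level in the panel library too, in which Igkv12-41 held 0.679%.

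Igkv8-16 had 6 reads (0.0846%) and 26 (0.237%), a ratio of 2.80 with an interval from 1.13 to 8.33. Igkv4-81 had 13 reads (0.183%) and 43 (0.392%), a ratio of 2.14 with an interval from 1.13 to 4.34, and Igkv1-117 had 15 (0.212%) and 41 (0.374%), a ratio of 1.77 with an interval from 0.96 to 3.44. Of these, Igkv4-81 was above its 36 h value in the panel library, at 0.268%, Igkv8-16 was at that value, at 0.085%, and Igkv1-117 was far below it, at 0.0371%. Of these 3, the intervals of Igkv8-16 and Igkv4-81 left out 1 and that of Igkv1-117 did not, and all were wide. Igkv14-111 and Igkv12-46, among the leading Cast segments, had ratios of 0.88 and 1.14 with intervals that included 1, and panel values of 1.65% and 0.997%.

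**Figure D3:**
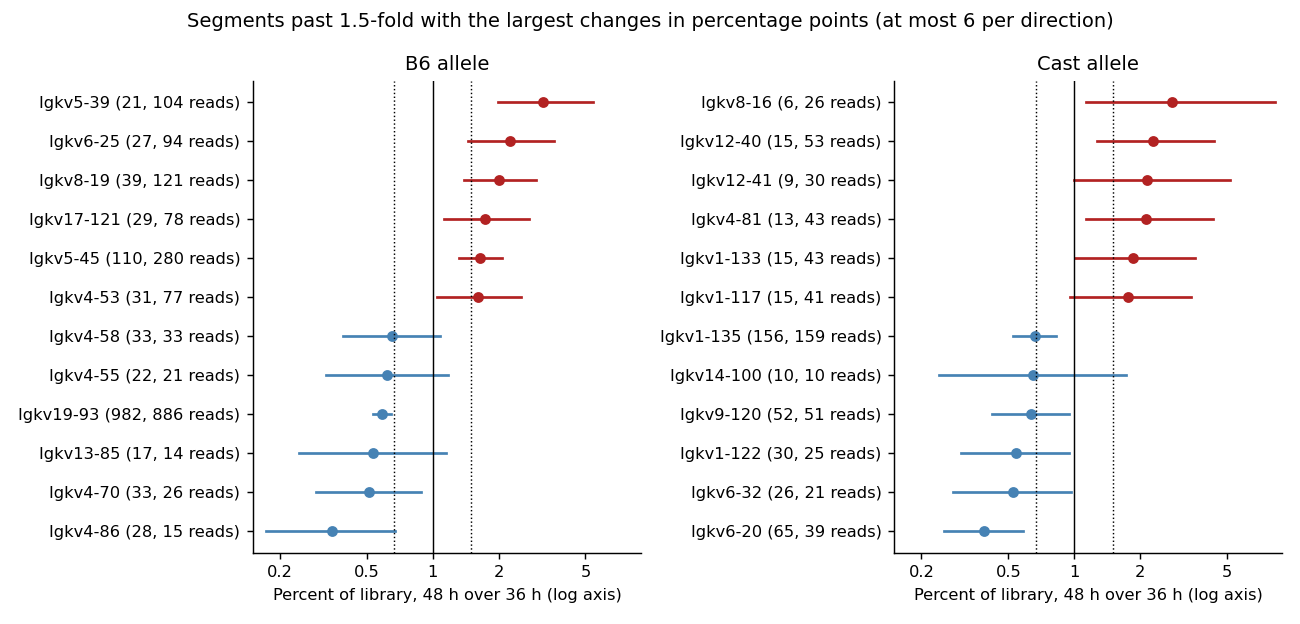
Percent of the library at 48 h over that at 36 h, on a log axis, for the called segments with the largest changes in percentage points, at most 6 for each direction and allele. Points are ratios, bars are exact 95% counting intervals, and the reads at 36 h and 48 h stand in parentheses. The interval of Igkv19-93 is the narrowest on B6 (0.53 to 0.64), and most Cast intervals are wide.

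Vκ families, read from the first number of the name of a segment, were compared by their percent of the reads of the allele. On B6 the Igkv5 family held 12.0% at 36 h and 16.0% at 48 h, a ratio of 1.33 with an interval from 1.21 to 1.47, and 2 of its 5 segments were called higher and none lower, beside the 13.0% called in each direction over all B6 segments. The Igkv6 family held 9.29% and 11.9%, a ratio of 1.28 with an interval from 1.15 to 1.42. In the panel library Igkv5 held 10.3% and Igkv6 15.3%, so that Igkv6 was above its 36 h level in both libraries at 48 h and Igkv5 in the time course only.

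The small Igkv17 family held 0.796% and 1.45% on B6, a ratio of 1.82 with an interval from 1.28 to 2.64, and both of its segments compared were called higher, against 13.0% of all B6 segments. These segments are 97.5% identical, so that reads may have been split between them. Its panel value was 0.524%, below both. Igkv4, the largest family with 26 segments read, held 21.4% and 18.6%, a ratio of 0.87 with an interval from 0.81 to 0.94. Of its 21 segments compared, 5 were called lower and 2 higher, where 13.0% of all B6 segments were called in each direction. Its panel value was 27.5%, above both.

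On Cast the Igkv12 family held 5.80% at 36 h and 8.98% at 48 h, a ratio of 1.55 with an interval from 1.22 to 1.98, and 9.47% in the panel library. The Igkv8 family held 1.54% and 2.90%, a ratio of 1.89 with an interval from 1.19 to 3.07, and 3.48% in the panel library. Both were thus above their 36 h level in each library at 48 h. Of the 635 Cast Igkv8 reads of the panel library, 129 were from Igkv8-30 and 109 from Igkv8-28. These segments, named after their values were seen, had no Cast reads at 36 h or 48 h in the time course. The Igkv6 family held 6.04% and 3.57%, a ratio of 0.59 with an interval from 0.44 to 0.79, and Igkv9 6.09% and 4.47%, a ratio of 0.73 with an interval from 0.56 to 0.97. For these the panel values were 5.64% and 7.49%. As a family, Igkv6 therefore stood in opposite directions on the alleles, higher on B6 and lower on Cast, and Igkv6-20 alone went from 3.85% to 1.53% of Cast reads. Of the 3 Igkv6 segments compared on Cast, 2 were called lower and 1 higher. Over all Cast segments compared, 14.0% were called lower and 23.3% higher.

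**Figure D4:**
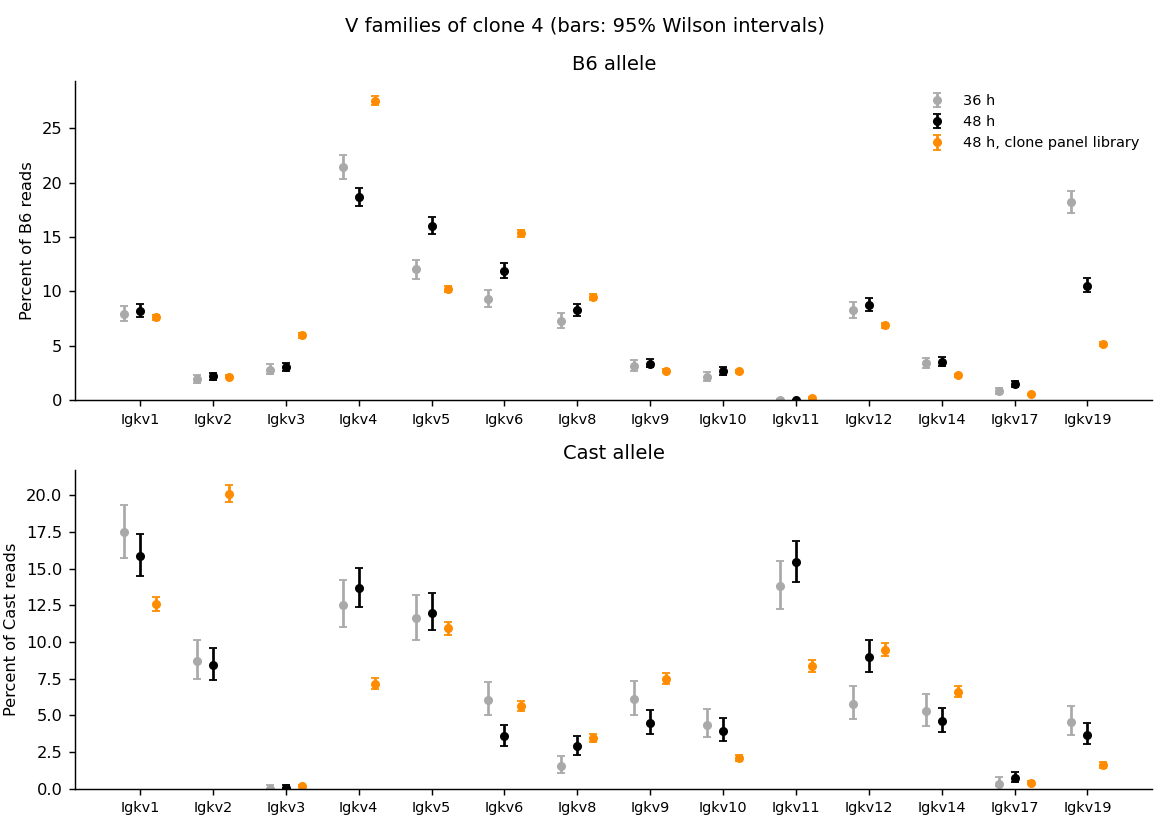
Percent of the reads of the allele held by the 14 Vκ families with at least 150 reads over both alleles and times, at 36 h, at 48 h and in the panel library at 48 h, with 95% Wilson intervals as bars. On B6, Igkv19 falls from 18.2% to 10.5% and Igkv5 stands at 12.0% and 16.0%. On Cast, Igkv12 stands at 5.80% and 8.98%.

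Along the locus, segments were set in 3 zones by the second number of their names, which counts away from Jκ: proximal (1 to 48), middle (49 to 92) and distal (93 and above). On B6 the proximal zone held 23.5% at 24 h, 39.1% at 36 h and 47.5% at 48 h, a ratio of 1.21 from 36 h to 48 h with an interval from 1.15 to 1.28. The middle zone held 23.6% and 20.7%, and the distal zone 37.2% and 31.9%. The proximal zone held 47.7% in the panel library, close to 48 h, the distal zone 23.5%, lower again, and the middle zone 28.8%, above both times.

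Igkv19-93 is a distal segment, and without it the distal share was 23.3% at 36 h and 23.8% at 48 h, with an interval of the ratio from 0.95 to 1.11. In the time course the distal loss on B6 was thus that of Igkv19-93, while the panel library held 19.4% without it, below 36 h. The proximal gain remained, from 47.8% to 53.1% with a ratio of 1.11 and an interval from 1.05 to 1.17 and 50.2% in the panel library, and the middle zone held 28.9% and 23.1%, against 30.3% in the panel library. On Cast the distal zone was the largest, with 59.6% and 55.6%, beside 25.0% and 27.1% proximal and 15.4% and 17.3% in the middle, and the intervals of all 3 ratios included 1. Of the Cast reads of the panel library 29.6% were proximal, 10.4% were in the middle, below both times, and the rest were distal.

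**Figure D5:**
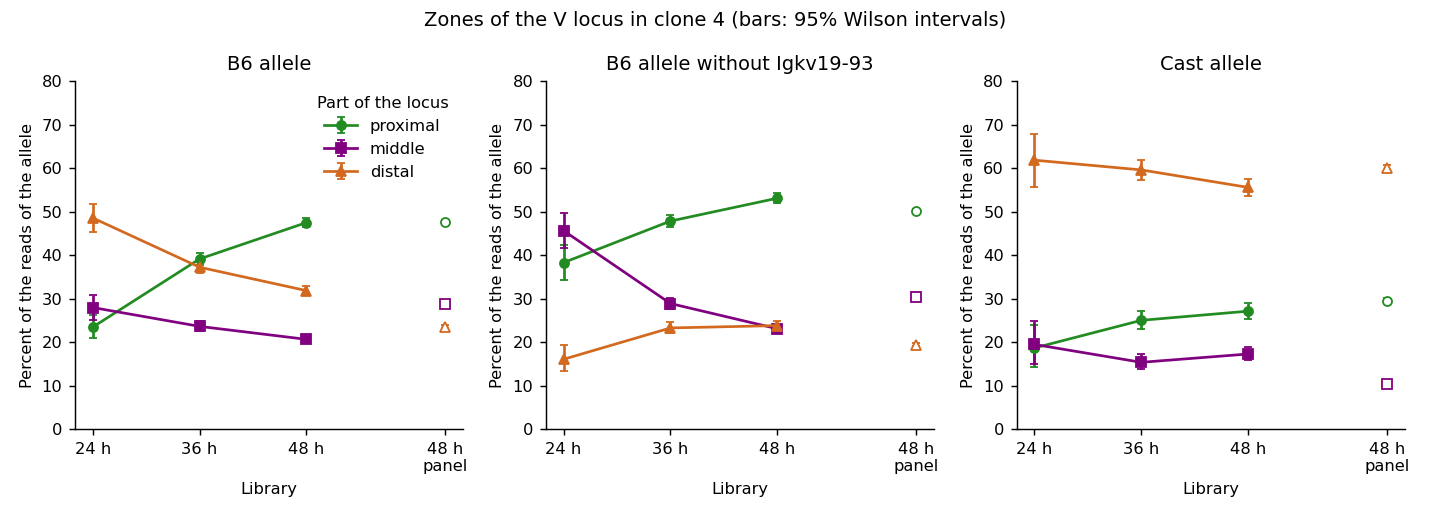
Percent of the reads of the allele from the proximal, middle and distal zones of the Vκ locus at 24 h, 36 h and 48 h, and in the panel library as open symbols, with 95% Wilson intervals. On B6 the proximal share is 39.1% at 36 h and 47.5% at 48 h, and on Cast the distal share is the largest at each time.

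By strand, segments on the plus strand, which join by deletion on an unrearranged locus, held 23.2% of B6 reads at 36 h and 26.6% at 48 h. The reads do not show whether an earlier inversion had turned a segment. Without Igkv19-93 they held 28.3% and 29.7%, with an interval of the ratio from 0.98 to 1.12. On Cast they held 50.1% and 47.8%, and 57.2% in the panel library. The alleles differed in where these segments lay. The 13 proximal segments of the plus strand held 281 B6 reads (5.20%) at 36 h and 546 (6.49%) at 48 h. On Cast they held 0 of 1690 reads at 36 h, with an interval up to 0.227%, and 6 of 2550 (0.235%) at 48 h. The floor of 3 reads was 0.178% of Cast reads at 36 h. These segments had held 3 Cast reads (1.09%) at 12 h and 2 (0.830%) at 24 h, and held 1.36% in the panel library. The pair of proximal plus-strand segments read on Cast at 48 h, Igkv6-25 with 4 reads and Igkv3-1 with 2, were named after their values were seen.

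Annotated pseudogenes held 2.81% of B6 reads at 36 h and 2.49% at 48 h, and 19.5% and 21.0% of Cast reads, most of which came from Igkv11-106. Both intervals of the ratio included 1, and the panel library held 3.28% and 12.1%. Segments with the full heptamer and nonamer held 40.4% and 30.8% of B6 reads, and without Igkv19-93 27.2% and 22.7%, a ratio of 0.83 with an interval from 0.77 to 0.90. The panel library held 34.6%, and without Igkv19-93 31.1%, which is above the level at 36 h. On Cast, where the letters of the RSS were not read, the same segments held 17.5% and 17.8%, and 23.4% in the panel library. A match of letters describes these segments and does not say that the sequence set their use.

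The balance of the alleles differed little as a whole. Cast reads were 23.8% of the library at 36 h and 23.3% at 48 h, and a two-sided Fisher's exact test on the reads, which compares the libraries and not the times and counts PCR copies as separate molecules, gave p = 0.388. Without Igkv19-93 the shares were 26.7% and 24.6%, with p = 0.0029 by the same exact test. In the panel library it was 28.2%, so that the libraries at 48 h differed by more than those at 36 h and 48 h.

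The allelic ratio of a segment, the percent of its reads on B6, could be compared for 65 segments with at least 20 reads in each library. Its median change in either direction was 2.25 points, and 52 segments changed by under 10 points. At 36 h, 35 segments had over 80% of their reads on B6 and 6 under 20%, and at 48 h 33 and 5, and 56 segments were in the same class at both times.

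The intervals of the allelic ratio stood apart for 3 segments. Igkv1-135 had 18.8% of its reads on B6 at 36 h and 30.9% at 48 h, and the panel held 36.9%. Igkv4-81 had 87.1% and 69.1%, and the panel held 73.8%. Igkv6-20 had 71.0% and 88.8%, and the panel held 74.3%, near its value at 36 h. All 3 were thus on the same side of their 36 h value in both libraries at 48 h, Igkv6-20 by little in the panel library.

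Of these 65 segments, 12 had B6 reads only at both times and 4 had Cast reads only. The 4 on Cast were Igkv2-137, Igkv11-125, Igkv9-124 and Igkv11-106, named by this count after it was seen, with 35, 27, 28 and 206 reads at 36 h and 52, 62, 39 and 331 at 48 h. In the panel library Igkv11-125 had 99 of 229 reads on B6 and Igkv2-137 97 of 2721, and Igkv11-106 had 0 of 1393. Of the 12 on B6, 6 had no Cast read in the panel library either. A segment read on 1 allele only at 36 h and 48 h was therefore in part read on both in another library of the clone.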

How the data were processed

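VJ-seq of clone 4 was analysed at 36 h and 48 h, beside its libraries at 12 h and 24 h and of the clone panel at 48 h. The authors trimmed the paired reads, whose length is not assigned to single libraries, and used bowtie2 for alignment to a joint genome of B6 and Cast (mm10) and HTseq-count for counting. Program versions are not given in the sources used here. The deposited values are raw read counts of 112 Vκ segments for each allele, with 1 library of clone 4 for each time in the time-course table and 1 in the table of the clone panel. From them, percents of the library and of the allele, 95% Wilson intervals, exact conditional intervals of ratios, Bray-Curtis dissimilarities with their binomial sampling mean, rarefied segment numbers and unbiased inverse Simpson indices were obtained in Python 3.11.15 with NumPy 2.4.6, SciPy 1.17.1 and pandas 2.3.3. Identity between segments came from alignments of GENCODE M21 transcripts with Biopython 1.88, on B6 sequence only, and figures from matplotlib 3.10.9. No count model was fitted, since there are no replicates, and the call was tested on simulated data. All 112 segments were found in RefSeq and 111 in GENCODE M21, which gave the coordinates, strands and gene types.

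Segments were named by rule: for each allele and direction the 6 called segments with the largest change in percentage points of the library, the 5 most used at each time, and those with 0 reads in 1 library and at least 5 in the other. For other segments the text says that they were chosen after seeing their values. The members, lists and zones were chosen with earlier results of these data known. Alternatives varied the minimum of reads, the fold, the denominator, the index and the library at 48 h. The tests of zones and families without Igkv19-93, without pseudogenes and with the panel library were added after seeing the data. ATAC-seq and nuclear RNA libraries were not analysed here.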

Additional observations from a re-analysis of the deposited data

How the results depend on the processing

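No paired analysis was possible because each time has 1 library, which carries no replicate number. The number of segments compared differs between settings and is given with each count. B6 segments called higher were 9 of 69. They were 15 of 91 with no minimum of reads, 4 of 69 at a fold of 2 and 36 of 91 with the panel library. B6 segments called lower were 9 of 69. They were 3 of 52 at a minimum of 50 reads and 2 of 69 at a fold of 2. Where the interval had to leave out 1 they were 3 of 69, and with the panel library 16 of 91. Cast segments called higher were 10 of 43. They were 4 of 27 at a minimum of 50 reads, 18 of 72 with no minimum and 4 of 43 at a fold of 2. Where the interval had to leave out 1 they were 4 of 43, and with the panel library 20 of 61. Cast segments called lower were 6 of 43. They were 10 of 53 at a minimum of 10 reads, 11 of 72 with no minimum, 1 of 43 at a fold of 2 and 13 of 61 with the panel library. Percents of the allele, of the library without Igkv19-93 and ratios divided by their median kept each count within 1.5 times.

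The dissimilarity from 36 h was 0.270 on B6 and 0.297 on Cast with the panel library, and 1 minus the Morisita index, which allows for depth, was 0.0784 and 0.0236. The change of the Cast share was -2.12 points without Igkv19-93 and 4.41 points, in the other direction, with the panel library. Without Igkv19-93 the ratios on B6 were 1.11 for the proximal zone, 1.02 for the distal zone, which turns its direction, and 0.80 for Igkv4. With the panel library the B6 ratios were 0.63 for the distal zone and 1.65 for Igkv6, and those of Igkv5 (0.85) and Igkv4 (1.29) turned direction, while Igkv6 on Cast was 0.93. The cause of the difference between the libraries at 48 h was not tested. Segments under 20 reads could not be compared, which left out 22 of 91 read on B6 and 29 of 72 on Cast.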

Other observations

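The panel library also read segments that the time course did not. Of 91 B6 segments with at least 20 reads in the panel library, 6 had no read in any of the 4 libraries of the time course, and together they held 1715 reads, 3.70% of B6 reads. Most of these were from Igkv4-68, with 1156 of 46406 B6 reads, where the time course library at 48 h held 8408 B6 reads. On Cast it was 2 of 59 segments with 238 reads, of which Igkv8-30 had 129. The other way, Igkv4-59 had 11 and 30 Cast reads at 36 h and 48 h, and all its panel reads were on B6. Igkv4-68, Igkv8-30 and Igkv4-59 were chosen for naming from these counts. The labels do not tell whether the panel library and the time course came from 1 culture, so that culture and library cannot be told apart. The cause of these differences was not tested.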
